A study of Mus musculus with 2 samples.

Results

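The collagen genes were taken as the genes of the deposited count tables whose symbol is Col, a number, the letter a and a further number, which gave 44 of 31057 genes. They were followed in single cells of whole ovaries of female CD1 mice, an outbred stock, at postnatal day 2, dissociated with collagenase type IV and AccuMax. Each of 2 libraries (replicates 1 and 2, n = 2) pooled the ovaries of several pups of a single litter, and no genotype, treatment or time was compared. The series asks which ovarian cell types transcribe the genes of long-lived ovarian proteins, so the comparisons here are between cell types of the same libraries, and p-values measure only the spread between these 2 pools.

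Replicate 1 held 4094 cells with 54471790 unique molecular identifiers (UMIs, 1 per captured transcript molecule) and replicate 2 held 4847 cells with 59074480 UMIs, with medians of 8315.5 and 5798 UMIs per cell, and 21 barcodes occurred in both. After filters on genes, mitochondrial reads and doublets, 3642 and 4371 cells were kept. A cell was given a type when the marker genes of that type held at least 2 UMIs and at least 70% of all marker UMIs in the cell. The interstitial gate (Dcn, Pdgfra, Tcf21) took 1387 and 2493 cells, the perivascular gate (Rgs5) 43 and 40, the granulosa gate (Foxl2, Fst, Wnt6) 1638 and 550, the endothelial gate (Cdh5) 56 and 17, and the germ gate (Ddx4, Dazl, Ooep) 232 and 657. The mesothelial gate (Upk3b) took only 9 and 21 cells, because most cells with Upk3b also carried Wnt6 and Dcn. A gate in which Upk3b took precedence, added after the data were seen, held 172 and 252 cells, and its values are given as those of Upk3b-first cells. Of 8 further markers per type that no gate used, 8 were detected in the cells of their own type in each of the 6 types. Any UMI in the summed cells of either library counted as detection, so this count does not show that the markers were specific. The granulosa markers also summed to 1730 and 1150 UMIs per 1000000 UMIs of the same cells (counts per 1000000, CPM, the unit of every level below) in the Upk3b-first cells, against 951 and 956 in granulosa-gated cells, so these surface cells were not told from granulosa cells by that list. Erythroid markers summed to 31.6 CPM in interstitial-gated cells of replicate 1 and to 1390 in those of replicate 2. The part of red-cell RNA in the results below was not tested.

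Collagens are secreted or membrane proteins in which chains wind into a helix, and they fall into classes by what the helices build. Fibrillar collagens form the fibrils of connective tissue, type IV collagens form the sheet of the basement membrane, type VI collagens form beaded filaments beside cells, and fibril-associated collagens and multiplexins decorate fibrils and basement membranes. In the ovary, a stroma of fibrils surrounds the follicles, and each follicle, each vessel and the surface layer lie on a basement membrane.

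Collagens made up the largest share of the transcripts of interstitial-gated cells, at 1.04% and 0.913% of all UMIs in replicates 1 and 2. The share was 0.466% and 0.357% in perivascular-gated cells, 0.269% and 0.157% in endothelial-gated cells, 0.184% and 0.205% in Upk3b-first cells and 0.125% and 0.134% in granulosa-gated cells. It was lowest in germ-gated cells, at 0.014% and 0.0211%. The interstitial values lay above those of every other type in both libraries, whereas the endothelial values spanned those of the Upk3b-first cells. The leading class differed by type. Fibrillar collagens led in interstitial-gated cells, at 0.77% and 0.688% of UMIs, and basement membrane collagens led in perivascular-gated cells, at 0.257% and 0.19%, and in endothelial-gated cells, at 0.219% and 0.109%. Granulosa-gated cells held 0.0428% and 0.0519% basement membrane, 0.0326% and 0.0307% multiplexin and 0.026% and 0.0268% fibrillar collagen, and Upk3b-first cells held nearly as much type VI (0.0625% and 0.0651%) as fibrillar collagen (0.0668% and 0.0818%).

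**Figure D1:**
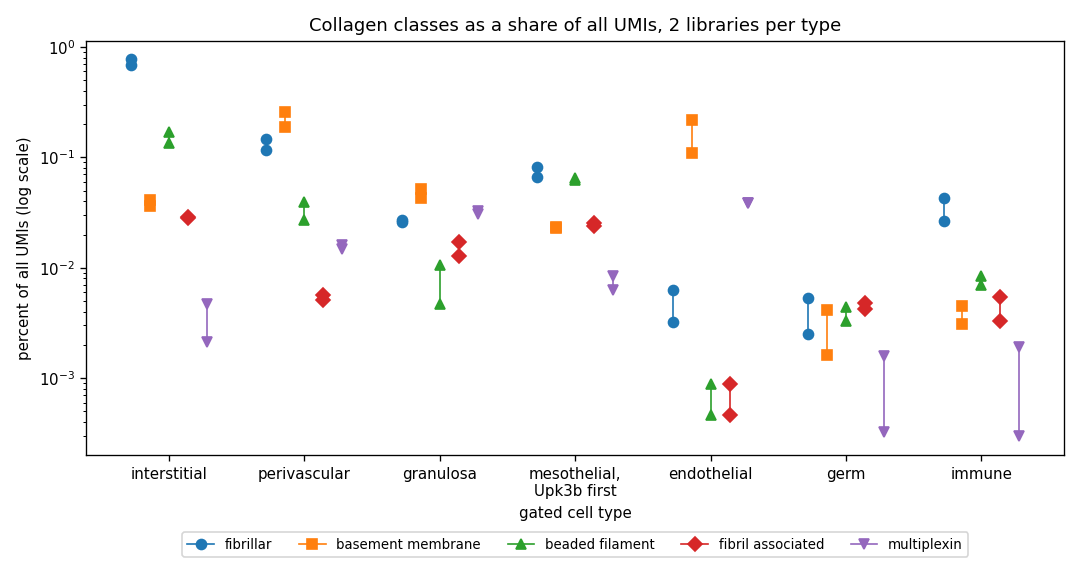
Share of all UMIs held by 5 collagen classes (y axis, percent, log scale) in each gated cell type (x axis), with 1 point per library joined by a line. Fibrillar collagens stand highest in interstitial cells (0.77% and 0.688%) and basement membrane collagens in perivascular and endothelial cells.

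For the test, UMIs were summed per library and type, and each type was set against the mean of the logarithms of the other 5 with edgeR's quasi-likelihood test and Benjamini-Hochberg adjustment over the 13924 genes tested. A gene was called at an adjusted p under 0.05 and a change of more than 2-fold. Of the 44 members, 34 passed the filter on low counts, and these were called higher in 3 types at most. In interstitial-gated cells 25 of the 34 were higher, against 14.7% of all genes, and the median log2 fold change was 4.63, against 0.28 for all genes. In perivascular-gated cells 10 were higher (background 5.59%), in granulosa-gated cells 8 (background 15.5%), in endothelial-gated cells 6 (background 9.29%), in mesothelial-gated cells 4 (background 2.83%) and in germ-gated cells 3 (background 32.4%). Since a cell type with no UMI of a gene lowers the mean of the others without limit, 16 of the 25 interstitial, 5 of the 10 perivascular, 5 of the 8 granulosa, 3 of the 6 endothelial and 3 of the 3 germ calls rest on such a type, and for these genes levels and lower bounds are given in place of fitted folds. Against the summed counts of the other types, which the interstitial cells then dominate, 3 of the 10 perivascular calls were made. The contrasts share cell types and are not independent of each other.

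On the linear scale, 24 of the 25 interstitial and 6 of the 10 perivascular calls lay above the mean of the other types in both libraries. The same held for 7 of the 8 granulosa, 5 of the 6 endothelial, 3 of the 3 germ and only 2 of the 4 mesothelial calls. In the other direction, 13 collagens were lower in germ-gated cells, where 16.0% of all genes were, and 10 in endothelial-gated cells, where 3.82% were. Granulosa-gated cells had 3 lower (background 3.12%), namely Col1a1 (log2 fold change −1.77 ± 0.51, adjusted p = 0.0202), Col1a2 (−1.25 ± 0.36, adjusted p = 0.0205) and Col26a1 (−1.52 ± 0.41, adjusted p = 0.0155). These were unsteady: without replicate 2 Col26a1 came to 0.41, with a gate at 90% Col1a2 came to 0.81, and with either library left out Col1a1 came to −0.38 or −0.05 (values with 1 library per type have no test). By DESeq2, 24 were lower in germ-gated and 11 in granulosa-gated cells. Over all genes, DESeq2 also called more lower there, with 3845 and 1448 against 2233 and 434 by edgeR. Interstitial-gated cells had 1 lower (Col18a1, background 2.85%) and mesothelial-gated cells 1 (Col1a2, background 0.531%). Perivascular-gated cells had 0 lower by edgeR (background 1.59%) and 0 by DESeq2, and 1 had an unadjusted p under 0.05 with either tool. Against the summed counts of the other types, 7 were lower there (Col1a1, Col6a1, Col6a2, Col8a2, Col9a2, Col9a3 and Col26a1), 18 in endothelial-gated, 21 in granulosa-gated and 28 in germ-gated cells. Counts over all genes were not taken for that reference.

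**Figure D2:**
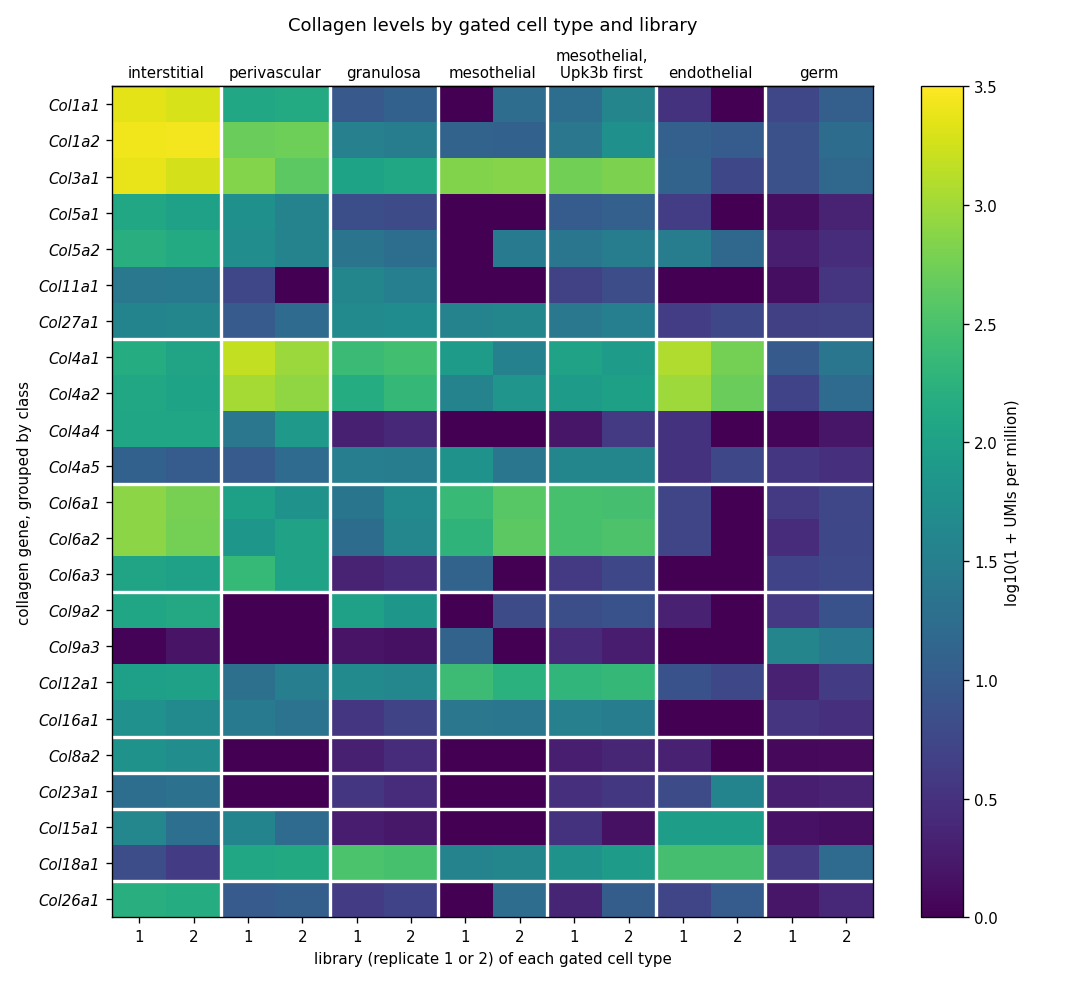
Levels of the 23 collagens that reach a mean of 20 CPM in some gated type, as log10(1 + CPM), with genes in rows grouped by class and the 2 libraries of each type in columns. Col1a1, Col1a2 and Col3a1 are brightest in the interstitial columns, and Col4a1 and Col4a2 in the perivascular and endothelial ones.

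Type I collagen, the main fibril protein of connective tissue, is built from the chains of Col1a1 (chromosome 11, 94936224 to 94953042) and Col1a2 (chromosome 6, 4504814 to 4541544; GRCm38 gene annotation). Col1a1 held 2250 and 1950 CPM in interstitial-gated cells, 120 and 139 in perivascular-gated cells, 8.47 and 11.3 in granulosa-gated cells and at most 10.4 in endothelial- and germ-gated cells. All interstitial values exceeded all others, with a log2 fold change over the other types of 7.59 ± 0.26 (SE, adjusted p = 6.08e-10). Col1a2 held 2700 and 2750 in interstitial-gated, 508 and 526 in perivascular-gated, 32.1 and 28.6 in granulosa-gated, 23.5 and 56.2 in Upk3b-first and 11 and 9.31 in endothelial-gated cells, and its interstitial log2 fold change was 6.6 ± 0.23 (adjusted p = 6.08e-10). Against the mean of the logarithms of the other types, perivascular-gated cells were called higher, by 2.56 ± 0.42 on the log2 scale for Col1a1 (adjusted p = 0.00142) and by 3.52 ± 0.28 for Col1a2 (adjusted p = 1.84e-06). On the linear scale neither lay above the mean of the other types in either library, and against the summed counts of the other types Col1a1 was called lower. Immune-gated cells, which should lack type I collagen, held 77.3 and 128 CPM of Col1a1, close to the perivascular level. Their Col1a2, at 54.1 and 107, lay well below the perivascular level. The balance of the chains differed between these types, with 0.833 and 0.712 Col1a1 UMIs per Col1a2 UMI in interstitial-gated cells and 0.236 and 0.265 in perivascular-gated cells. These are counts at the 3′ end of transcripts and are not divided by transcript length.

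Type I collagen transcripts were present in nearly every interstitial-gated cell. When every cell was thinned to 2000 UMIs, Col1a1 was seen in 97.4% and 95.0% of interstitial-gated cells (99.7% and 99.0% before thinning, median depth 6531 and 5011 UMIs). In immune-gated cells, which should lack it, the thinned share was 4.0% and 9.3% (11.8% and 18.9% before, median depth 7873.5 and 6715), and the 0.889% and 2.27% of germ-gated cells lay below that background. Thinning left out 4 and 47 interstitial-, 7 and 84 germ- and 9 and 10 immune-gated cells as too shallow.

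Col3a1 (chromosome 1, 45311538 to 45349706), the chain of type III collagen of pliable tissues, was spread more widely than type I. It held 2410 and 1880 CPM in interstitial-gated, 711 and 412 in perivascular-gated, 690 and 736 in mesothelial-gated, 566 and 646 in Upk3b-first and 105 and 122 in granulosa-gated cells. Endothelial-gated cells held 12.1 and 4.66 and germ-gated cells 6.46 and 14. Perivascular and mesothelial values overlapped, and the interstitial values were above and the granulosa values below both. It was the only member called higher in 3 types, with log2 fold changes of 4.69 ± 0.23 in interstitial-gated (adjusted p = 1.35e-08), 2.18 ± 0.27 in perivascular-gated (adjusted p = 1.57e-04) and 2.6 ± 0.28 in mesothelial-gated cells (adjusted p = 1.05e-04). With the other types summed as the reference, Col3a1 was called higher in interstitial-gated cells only. Upk3b-first cells held 24.1 and 11.5 Col3a1 UMIs per Col1a2 UMI and granulosa-gated cells 3.28 and 4.28, against 0.892 and 0.684 in interstitial-gated cells. In the granulosa-gated cells that also fell in granulosa clusters the level was 104 and 117. Col3a1 was seen in 16.6% and 22.9% of thinned granulosa-gated cells (57.1% and 66.5% before) against 8.0% and 9.3% of immune-gated cells (14.7% and 13.2% before). In level, immune-gated cells held 92.8 and 173 CPM, so the granulosa values lay within that background. Col1a2 lay below its immune level of 54.1 and 107 in granulosa-gated and in Upk3b-first cells. The granulosa ratio of Col3a1 to Col1a2 therefore compares levels within or below that background. In immune-gated cells this ratio was 1.71 and 1.61.

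The starts of Col1a2 and Col3a1 are shown because the ratio of these chains differed between surface and interstitial cells. Each window runs from 250 bases before to 50 after the RefSeq start on the strand of the gene, in GRCm38.p6 (Col1a2, chr6:4505368-4505667, plus strand; Col3a1, chr1:45311288-45311587, plus strand), and capitals mark TATAAA or CCAAT read on either strand.
Col1a2: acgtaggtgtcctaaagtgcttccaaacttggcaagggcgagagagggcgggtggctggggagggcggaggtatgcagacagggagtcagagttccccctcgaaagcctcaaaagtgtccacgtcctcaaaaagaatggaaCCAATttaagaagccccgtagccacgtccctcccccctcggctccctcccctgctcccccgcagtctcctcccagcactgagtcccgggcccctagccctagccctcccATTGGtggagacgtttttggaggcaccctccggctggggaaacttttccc
Col3a1: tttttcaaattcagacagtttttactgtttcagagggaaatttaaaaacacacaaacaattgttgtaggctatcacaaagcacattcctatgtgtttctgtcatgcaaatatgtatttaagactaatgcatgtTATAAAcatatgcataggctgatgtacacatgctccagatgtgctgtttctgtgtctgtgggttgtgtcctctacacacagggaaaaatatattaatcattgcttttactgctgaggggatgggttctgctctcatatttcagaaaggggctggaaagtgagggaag
The Col1a2 window held 2 such matches, both of CCAAT, and the Col3a1 window held 1, of TATAAA. Among 38 windows of 35 members (9 members had none), 5 held TATAAA (13.2%, against 13.6% of all 32851 windows), 13 held CCAAT (34.2% against 37.4%) and 23 held GGGCGG, the letters of a GC box (60.5% against 35.7%), each read on both strands. The median GC content was 59.9% in the collagen windows and 52.7% in all windows, so the higher share of GGGCGG came with a higher GC content. Matches of this kind describe letters and not bound sites.

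Among the minor fibrillar chains, those of type V stood below type I in interstitial- and perivascular-gated cells. Col5a1 and Col5a2, whose type V fibrils set the width of type I fibrils, held 125 and 101 and 155 and 136 CPM in interstitial-gated cells, and 55.4 and 36.1 and 50.8 and 36.1 in perivascular-gated cells. Col5a2 also had 28.7 and 14 in endothelial-gated cells (26 and 3 UMIs), above both type I chains there, and 21 and 17.5 in granulosa-gated cells. Its interstitial log2 fold change was 3.43 ± 0.22 (adjusted p = 1.55e-07). Col5a1 had no UMI in the mesothelial-gated cells, so that interstitial-gated cells were at least 9.7-fold higher (floor of 3 UMIs over both libraries). Col11a1 and Col27a1, fibrillar chains best known from cartilage, had a different pattern, with granulosa-gated cells at the top. Col27a1 held 45.6 and 48.9 in granulosa-gated, 37.3 and 39.9 in interstitial-gated, 24.5 and 31.9 in Upk3b-first and 3.31 and 4.66 in endothelial-gated cells, with log2 fold changes of 1.99 ± 0.18 in granulosa-gated (adjusted p = 6.40e-06) and 1.7 ± 0.18 in interstitial-gated cells (adjusted p = 1.55e-05). Col11a1 held 38.9 and 31.1 in granulosa-gated and 24.3 and 25.1 in interstitial-gated cells, and granulosa-gated cells were at least 13.7-fold higher than the endothelial-gated cells, which had no UMI. In all, 7 of the 8 fibrillar chains tested were higher in interstitial-gated cells (14.7% of all genes), 4 in perivascular-gated cells (5.59%) and 2 in granulosa-gated cells (15.5%). In endothelial-gated cells 4 were lower (3.82% of all genes).

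Type IV chains are encoded in head-to-head pairs, and the pairs differed in the cell type of their highest level. Their cell types overlapped, and Col4a1 and Col4a2 were also present where the other pairs were highest. Col4a1 and Col4a2, the chains of most basement membranes, share a start region on chromosome 8, where the annotated genes (11198423 to 11312826 on the minus strand and 11312805 to 11449287 on the plus strand) overlap by 22 bases. Their windows are shown because both chains were highest in the same cell types (Col4a1, chr8:11312777-11313076, minus strand; Col4a2, chr8:11312555-11312854, plus strand; GRCm38.p6), and capitals mark the 78 bases that the windows share, read from opposite strands.
Col4a1: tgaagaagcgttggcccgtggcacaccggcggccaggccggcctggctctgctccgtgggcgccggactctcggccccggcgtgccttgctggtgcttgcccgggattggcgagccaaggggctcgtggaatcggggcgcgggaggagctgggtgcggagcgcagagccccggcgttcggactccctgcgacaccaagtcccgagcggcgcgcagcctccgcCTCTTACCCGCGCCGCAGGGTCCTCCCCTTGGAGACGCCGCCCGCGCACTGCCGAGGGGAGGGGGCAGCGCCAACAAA
Col4a2: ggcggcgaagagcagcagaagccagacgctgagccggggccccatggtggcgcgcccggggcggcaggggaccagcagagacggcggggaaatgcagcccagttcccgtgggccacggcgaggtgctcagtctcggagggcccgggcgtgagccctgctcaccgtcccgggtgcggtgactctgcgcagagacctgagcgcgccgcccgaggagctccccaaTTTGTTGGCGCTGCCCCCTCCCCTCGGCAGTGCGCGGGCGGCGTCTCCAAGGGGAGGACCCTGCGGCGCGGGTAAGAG
The starts of Col4a4 and Col4a3 lie 71 bases apart on chromosome 1, and these bases are in capitals in the Col4a4 window (chr1:82586800-82587099, minus strand), which is shown because Col4a4, unlike Col4a1 and Col4a2, was highest in interstitial-gated cells.
Col4a4: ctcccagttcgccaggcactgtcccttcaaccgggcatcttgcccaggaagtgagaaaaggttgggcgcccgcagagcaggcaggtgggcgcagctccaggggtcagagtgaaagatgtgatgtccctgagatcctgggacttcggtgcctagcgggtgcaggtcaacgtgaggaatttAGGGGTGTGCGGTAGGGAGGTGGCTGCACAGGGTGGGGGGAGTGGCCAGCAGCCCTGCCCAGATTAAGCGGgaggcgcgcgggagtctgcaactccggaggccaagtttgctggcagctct
The starts of Col4a6 and Col4a5 on chromosome X lie 1308 bases apart.

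Col4a1 held 1490 and 933 CPM in perivascular-gated, 1210 and 582 in endothelial-gated, 245 and 274 in granulosa-gated, 148 and 110 in interstitial-gated, 103 and 81.9 in Upk3b-first and 8.94 and 22.3 in germ-gated cells. Col4a2 followed with 1050 and 840 in perivascular-gated, 980 and 507 in endothelial-gated, 147 and 211 in granulosa-gated and 120 and 106 in interstitial-gated cells. For both chains perivascular and endothelial values overlapped and lay above all others. The log2 fold changes of Col4a1 were 3.22 ± 0.32 in perivascular-gated (adjusted p = 1.75e-05) and 2.89 ± 0.31 in endothelial-gated cells (adjusted p = 2.16e-05), and those of Col4a2 were 3.15 ± 0.36 (adjusted p = 6.32e-05) and 2.94 ± 0.35 (adjusted p = 4.37e-05). The ratio of Col4a1 to Col4a2 stayed between 1.03 and 1.67 in the interstitial-, perivascular-, granulosa- and endothelial-gated cells of both libraries. Outside these types it ranged more widely, at 1.26 and 0.844 in Upk3b-first and 2.18 and 1.39 in germ-gated cells. After thinning, Col4a1 was seen in 97.7% and 76.3% of perivascular-gated and 83.9% and 70.6% of endothelial-gated cells (all cells of replicate 1 and 88.2% to 90% of replicate 2 before), against 0.0% and 4.65% of immune-gated cells (5.88% and 5.66% before). Col4a1 overlaps Col4a2 and 2 further genes, and reads where annotations overlap cannot be assigned with certainty.

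**Figure D3:**
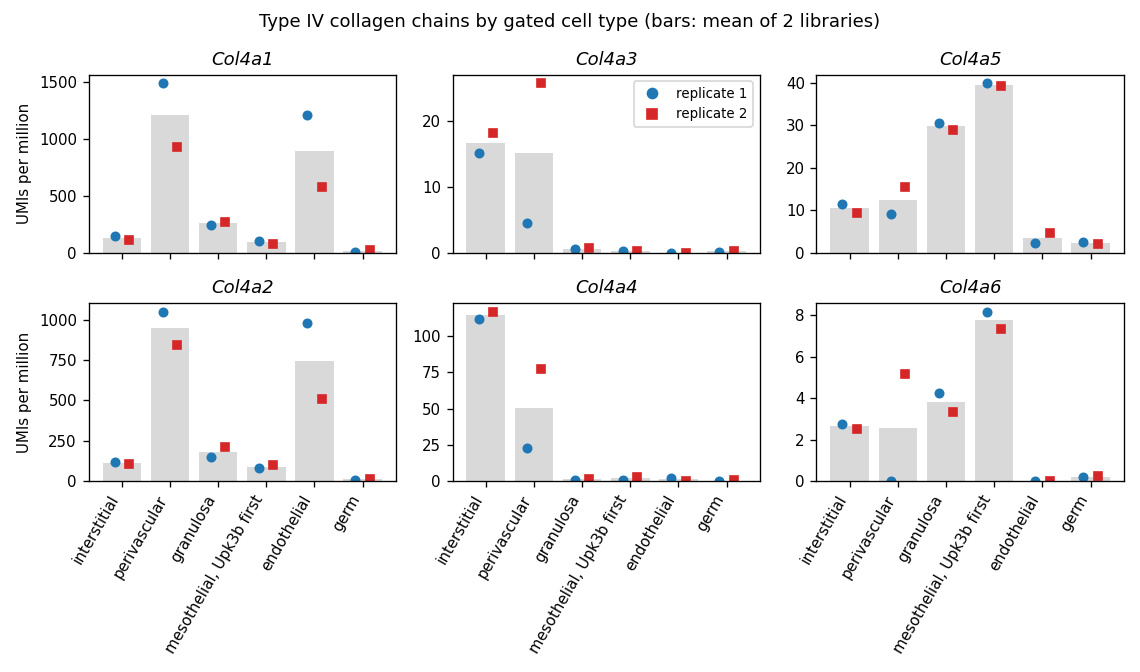
CPM (y axis, linear from 0, scaled per gene) of the 6 type IV chains in each gated cell type, with points for the 2 libraries and bars for their mean. Col4a1 and Col4a2 are highest in perivascular and endothelial cells, Col4a3 and Col4a4 are found in interstitial and perivascular cells, and, of the types plotted, Col4a5 and Col4a6 are highest in the Upk3b-first cells.

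Col4a4, a chain known from the basement membranes of kidney and ear, held 112 and 117 CPM in interstitial-gated and 23.1 and 77.3 in perivascular-gated cells, and at most 2.98 in the granulosa-gated, Upk3b-first, endothelial-gated and germ-gated cells. It had no UMI in mesothelial-gated cells, so that interstitial-gated cells were at least 10.1-fold higher. Its partner Col4a3 was sparser, at 15.2 and 18.3 in interstitial-gated cells and 4.61 and 25.8 in perivascular-gated cells (1 and 5 UMIs), with 0.135 and 0.157 Col4a3 UMIs per Col4a4 UMI in interstitial-gated cells. Both were called higher in interstitial- and in perivascular-gated cells. Interstitial and perivascular values overlapped for Col4a3 and not for Col4a4, and the direct comparison called neither (log2 fold change 1.39 ± 0.48, adjusted p = 0.117 for Col4a4 and 0.36 ± 0.66, adjusted p = 0.849 for Col4a3). A perivascular level here rests on few molecules, 5 and 15 UMIs for Col4a4.

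Col4a5 and Col4a6, chains of epithelial and smooth muscle basement membranes, were highest in granulosa and surface cells. Col4a5 held 30.5 and 29 CPM in granulosa-gated, 39.9 and 39.2 in Upk3b-first, 11.4 and 9.49 in interstitial-gated, 9.23 and 15.5 in perivascular-gated and 2.21 and 4.66 in endothelial-gated cells. The few mesothelial-gated cells held 59.5 and 22.3. The Upk3b-first values lay above the granulosa values, and both lay above the interstitial, perivascular and endothelial ones. The log2 fold change was 1.94 ± 0.23 in granulosa-gated cells (adjusted p = 5.22e-05), and 2.46 ± 0.17 in the surface cells when Upk3b took precedence (adjusted p = 1.45e-06), although the 9 mesothelial UMIs of the stricter gate gave no call (adjusted p = 0.0553). The difference between Upk3b-first and granulosa-gated cells was not called (log2 fold change 0.49 ± 0.18, adjusted p = 0.0761). Per Col4a1 UMI there were 0.386 and 0.479 Col4a5 UMIs in Upk3b-first cells and 0.125 and 0.106 in granulosa-gated cells. Col4a6 held 23.8 and 5.58 in mesothelial-gated (2 and 1 UMIs), 8.17 and 7.34 in Upk3b-first and 4.26 and 3.32 in granulosa-gated cells. There were 4.88 to 8.75 Col4a5 UMIs for each Col4a6 UMI in Upk3b-first and granulosa-gated cells, and too few UMIs for this ratio in mesothelial-gated cells.

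Type VI collagen is assembled from a1, a2 and a larger a3 chain. Col6a1 (chromosome 10, 76708792 to 76726168) held 777 and 613 CPM in interstitial-gated, 305 and 294 in Upk3b-first, 238 and 385 in mesothelial-gated, 96.9 and 61.8 in perivascular-gated and 22.2 and 45.2 in granulosa-gated cells, and Col6a2 from the same chromosome held 777 and 580, 306 and 337, 190 and 418, 69.2 and 103, and 16.4 and 41. Both had 4.42 and 0 in endothelial-gated cells. Col6a1 was higher in interstitial-gated cells by a log2 fold change of 4.81 ± 0.25 (adjusted p = 2.55e-08) and in mesothelial-gated cells by 3.29 ± 0.36 (adjusted p = 1.05e-04), and Col6a2 by 4.84 ± 0.33 (adjusted p = 2.07e-07) and 3.36 ± 0.46 (adjusted p = 7.64e-04). These 2 chains stayed near equal, with 1.0 and 1.06 Col6a1 UMIs per Col6a2 UMI in interstitial-gated and 0.997 and 0.873 in Upk3b-first cells.

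Col6a3 did not follow its partners. It held 221 and 103 CPM in perivascular-gated cells (48 and 20 UMIs) and 111 and 101 in interstitial-gated cells, but 2.94 and 4.82 in Upk3b-first cells, 1.13 and 1.66 in granulosa-gated cells and none in endothelial-gated cells. Against the endothelial-gated cells, perivascular-gated cells were at least 61.8-fold and interstitial-gated cells at least 39.2-fold higher. There were 2.29 and 1.67 Col6a3 UMIs per Col6a1 UMI in perivascular-gated cells, 0.142 and 0.166 in interstitial-gated cells and 0.0164 in the Upk3b-first cells of replicate 2 (too few in replicate 1). Germ-gated cells held 4.11 and 4.9 CPM, with 1.39 and 1.06 Col6a3 UMIs per Col6a1 UMI. Immune-gated cells, which should lack most collagens, held 34.8 and 29.8 CPM of Col6a1 and 0 and 5.96 of Col6a3. The germ ratio therefore compares levels within or below that background. The alternative large chains Col6a4, Col6a5 and Col6a6 stayed under 20 CPM in every type. Col6a5 differed between the libraries, with 1.96 and 19.2 in interstitial-gated, 0.719 and 11.1 in granulosa-gated and 2.54 and 10.5 in germ-gated cells. The main fit called it in no type. With the library as a replicate block it was called higher in interstitial- and in germ-gated cells.

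**Figure D4:**
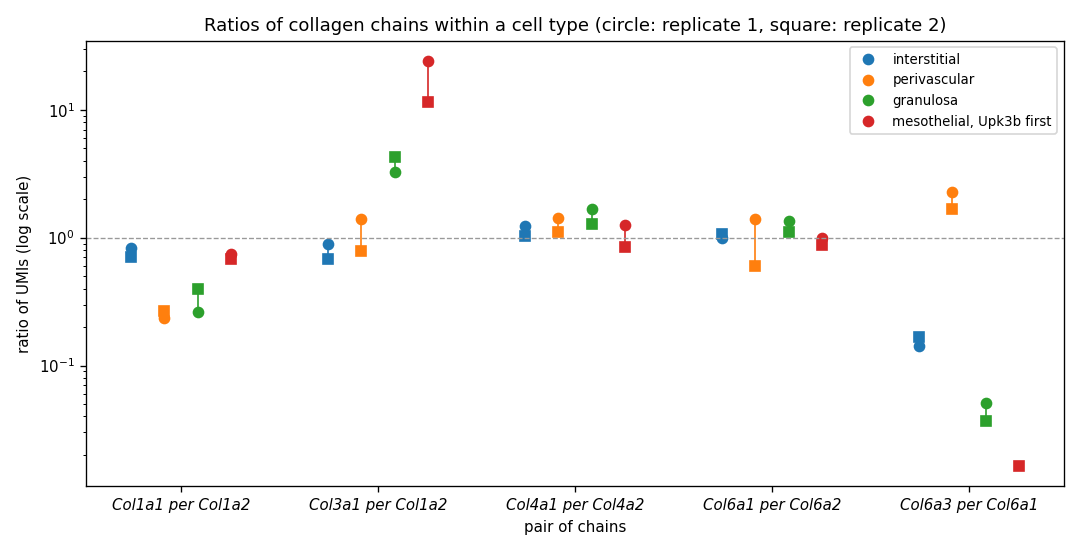
Ratio of the UMIs of paired collagen chains (y axis, log scale) in interstitial, perivascular, granulosa and Upk3b-first mesothelial cells, with a circle for replicate 1 and a square for replicate 2, where both genes of the pair sum to enough UMIs. Col4a1 per Col4a2 and Col6a1 per Col6a2 stay near 1 in most types, whereas Col6a3 per Col6a1 differs between types by more than between libraries. Col3a1 per Col1a2 is higher in granulosa and Upk3b-first cells than in interstitial and perivascular cells. In granulosa cells both of these genes lie within or below the level of immune-gated cells, which should lack most collagens. The interstitial (0.892 and 0.684) and perivascular values (1.4 and 0.784) of that ratio overlap.

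Among the fibril-associated collagens, which sit on the surface of fibrils, Col12a1 was the surface-cell member. It held 250 and 173 CPM in mesothelial-gated, 198 and 215 in Upk3b-first, 93.4 and 101 in interstitial-gated, 44.4 and 41.3 in granulosa-gated and 6.62 and 4.66 in endothelial-gated cells. Its log2 fold change was 3.44 ± 0.4 in mesothelial-gated (adjusted p = 2.17e-04) and 2.36 ± 0.26 in interstitial-gated cells (adjusted p = 1.60e-05). Col9a2, a type IX chain best known from cartilage, held 118 and 129 in interstitial-gated and 100 and 70.6 in granulosa-gated cells, 5.88 and 6.65 in Upk3b-first cells and none in perivascular-gated cells, so that interstitial- and granulosa-gated cells were at least 17.1-fold and 12.6-fold higher than perivascular-gated cells. Its partner chains were not seen with it: Col9a1 had 1 UMI in all kept cells, and Col9a3 had at most 0.513 CPM in interstitial- and granulosa-gated cells. Col16a1 held 58.7 and 45.3 in interstitial-gated, 27.7 and 20.6 in perivascular-gated and 32 and 28.2 in Upk3b-first cells and none in endothelial-gated cells, from which interstitial-gated cells differed by at least 18.9-fold.

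Col9a3 was counted in germ-gated cells instead, at 37.9 and 25.9 CPM, at least 11.4-fold above endothelial-gated cells. It overlaps Tcfl5 on the opposite strand, which held 15.3 and 14 in germ-gated cells and at most 3.87 in any other type, and since the strand setting of the counting is not given in the sources used here, the reads of the overlap are uncertain. The other 2 germ calls were at low levels. Col6a6 held 17.5 and 11.7 in germ-gated and 8.92 and 14.9 in interstitial-gated cells, and Col25a1, a membrane collagen of neurons, held 9.55 and 9.84 in germ-gated and 13.8 and 10.3 in perivascular-gated cells (3 and 2 UMIs). With every cell thinned to 2000 UMIs, none of the 3 was called. The filter on low counts was applied again to the thinned sums, and Col9a3 did not pass it. For Col9a3 the thinned fit is therefore no test of the call, and Col6a6 and Col25a1 had still lower levels in germ-gated cells. Among the chains that were lower, the log2 fold change of Col1a1 was −2.07 ± 0.53 (adjusted p = 0.00361) and came to −0.36 without replicate 1. Others were Col4a1 (log2 fold change −4.04 ± 0.47, adjusted p = 5.84e-06), Col12a1 (−4.06 ± 0.42, adjusted p = 1.90e-06) and Col3a1 (−4.48 ± 0.37, adjusted p = 2.79e-07).

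The multiplexins, basement membrane proteins that carry sugar chains and release fragments named endostatins, had unlike patterns, with Col18a1 low and Col15a1 higher in interstitial-gated cells. Col18a1 (chromosome 10, 77052178 to 77166548) held 325 and 306 CPM in granulosa-gated, 295 and 293 in endothelial-gated, 125 and 134 in perivascular-gated, 60.1 and 84.4 in Upk3b-first and 5.69 and 3.04 in interstitial-gated cells. Granulosa and endothelial values were close, and the interstitial values lay below those of the other gated types except germ (2.78 and 15.6) and immune cells (15.5 and 2.98). In the perivascular-gated cells of replicate 2, 18 of the 26 Col18a1 UMIs came from 1 cell, which lay in the endothelial cluster, and without it the level was 47.2 in place of 134. Its log2 fold change was 3.15 ± 0.36 in granulosa-gated (adjusted p = 3.94e-05), 3.04 ± 0.41 in endothelial-gated (adjusted p = 1.36e-04) and −4.23 ± 0.58 in interstitial-gated cells (adjusted p = 1.19e-04). Thinned granulosa- and endothelial-gated cells had a Col18a1 UMI in 46.4% and 42.5% and in 33.9% and 52.9% of cells (90.6% and 87.6%, and 94.6% and 82.4%, before), and interstitial-gated cells, at 1.16% and 0.695%, lay below the 8.0% and 2.33% of immune-gated cells. Col15a1 was endothelial, at 91.6 and 88.5 in endothelial-gated, 40.8 and 18.1 in interstitial-gated, 36.9 and 15.5 in perivascular-gated and under 1 in granulosa-gated cells, and endothelial-gated cells were at least 7.99-fold above mesothelial-gated cells, which had none. With the interstitial level at 40.8 in 1 library and 18.1 in the other, Col15a1 differed between libraries more than most members. Col18a1 overlaps Slc19a1 and a further gene on the opposite strand.

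The remaining members with a level of 20 CPM were mainly interstitial. Col26a1, a secreted collagen of reproductive tissues, held 154 and 145 in interstitial-gated and 9.23 and 10.3 in perivascular-gated cells (log2 fold change over the other types 5.06 ± 0.24, adjusted p = 9.97e-09). Col8a2, a short-chain collagen, held 60.5 and 51 in interstitial-gated cells and none in perivascular-gated cells, at least 7.49-fold. Col23a1, a membrane collagen, held 17.6 and 19.7 in interstitial-gated and 5.52 and 37.2 in endothelial-gated cells, the last from 5 and 8 UMIs. In each library 1 endothelial-gated cell held most of them (3 and 5 UMIs), and without it the level was 2.31 and 18.9. The endothelial call of Col23a1 was lost with a gate at 90%. Of the 21 members below that level, Col14a1 reached 22.6 and 11.3 in granulosa-gated cells and Col13a1 16.6 and 4.66 in endothelial-gated cells. Immune-gated cells, which should lack most collagens, held more Col14a1 per UMI than granulosa-gated cells in both libraries. The granulosa values of Col14a1, although called higher, therefore lay below that background. The immune level rests on few molecules, as all fibril-associated collagens together had 14 and 11 UMIs there. The 10 members that were not tested had means of at most 2.5. Among these, Col2a1 of cartilage had 1 UMI in all kept cells and Col10a1 of growth cartilage had 0.

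The direct comparison of interstitial- with perivascular-gated cells called 5 of 8 fibrillar chains higher in interstitial-gated cells and 2 of 6 basement membrane chains higher in perivascular-gated cells. Interstitial-gated cells were higher for 11 of 34 members, against 3.07% of all genes, among them Col1a1 (log2 fold change 4.19 ± 0.41, adjusted p = 3.48e-05), Col26a1 (4.1 ± 0.56, adjusted p = 4.65e-04), Col6a1 (3.28 ± 0.44, adjusted p = 4.40e-04), Col1a2 (2.56 ± 0.34, adjusted p = 3.42e-04) and Col3a1 (2.09 ± 0.36, adjusted p = 0.00294). With clusters in place of the gate, Col1a2, Col3a1, Col12a1 and Col27a1 lost the call. Perivascular-gated cells were higher for 3, against 3.22% of all genes, namely Col18a1 (−4.75 ± 0.71, adjusted p = 0.00104), Col4a1 (−3.08 ± 0.48, adjusted p = 0.00134) and Col4a2 (−2.9 ± 0.52, adjusted p = 0.00388). Col6a3 did not pass (−0.47 ± 0.33, adjusted p = 0.497). Of the 8 interstitial markers 7 were detected in perivascular-gated cells (Mfap5 at 0), with a summed level of 729 and 866 CPM against 2710 and 2900 in interstitial-gated cells. The part of interstitial RNA in the perivascular levels was not tested.

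Endothelial- and perivascular-gated cells, which lay down the vascular basement membrane together, held Col4a1 and Col4a2 at overlapping levels and parted in the fibrillar and type VI chains and in Col4a3 and Col4a4. Perivascular-gated cells were higher for 10 members, against 3.31% of all genes, including Col3a1 (log2 fold change of endothelial over perivascular −5.59 ± 0.53, adjusted p = 5.69e-05), Col1a2 (−5.44 ± 0.49, adjusted p = 4.25e-05), Col1a1 (−6.01 ± 0.79, adjusted p = 4.95e-04) and Col6a1 (−4.34 ± 0.8, adjusted p = 0.00536), and in thinned cells 4 of the 10 remained called, namely Col1a1, Col1a2, Col3a1 and Col6a3, while Col6a1, Col6a2, Col4a3 and Col4a4 were among those that did not. No member was higher in endothelial-gated cells by edgeR or DESeq2, against 3.15% of all genes, and 2 had an unadjusted p under 0.05 with each tool. With the library as a replicate block, 1 member, Col15a1, was called (without the block 1.9 ± 0.6, adjusted p = 0.0908). Col4a1 (−0.27 ± 0.45, adjusted p = 0.851) and Col4a2 (−0.18 ± 0.5, adjusted p = 0.965) were not separated, which does not show that their levels were equal.

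Mesothelial-gated cells, set against granulosa-gated cells, were higher for 4 members, against 1.35% of all genes: Col6a2 (log2 fold change 3.4 ± 0.55, adjusted p = 0.00479), Col6a1 (3.17 ± 0.42, adjusted p = 0.0014), Col3a1 (2.55 ± 0.37, adjusted p = 0.00273) and Col12a1 (2.14 ± 0.41, adjusted p = 0.0136). Granulosa-gated cells were higher for 1, Col9a2 (−4.59 ± 1.08, adjusted p = 0.0447), against 1.11% of all genes, and for 3 with the library as a replicate block, which added Col18a1 and Col4a1. The larger set of Upk3b-first cells gave 8 higher and 7 lower members, with no share over all genes taken for this refit. It kept the 4 and added Col16a1 (3.4 ± 0.27, adjusted p = 2.52e-05), Col1a1, Col6a3 and Col6a6, and in the other direction it kept Col9a2 (−3.7 ± 0.39, adjusted p = 1.23e-04) and added Col11a1 (−2.77 ± 0.54, adjusted p = 0.00416), Col18a1 (−2.05 ± 0.53, adjusted p = 0.0171), Col4a1, Col8a1, Col14a1 and Col24a1.

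Within a type, cells differed more in some chains than in others. Per interstitial-gated cell thinned to 2000 UMIs, the fibrillar collagens held a median of 15 and 13 UMIs, with 10% of cells at or below 8.2 and 7 and 10% at or above 25 and 21, and only 0 of 1383 and 1 of 2446 cells had none. Perivascular-gated cells had a median of 3 and 3 fibrillar and of 4 and 3 Col4a1 and Col4a2 UMIs. Across interstitial-gated cells, Spearman's rho was 0.278 and 0.204 between Col1a1 and Col1a2 and 0.269 and 0.278 between Col1a1 and Col3a1 (1383 and 2446 cells, which share a library and its depth), and −0.0604 to 0.186 in the other 26 pairs of 8 chains. Such values in sparse counts are a description only.

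Clusters of the kept cells, made without the collagens and the gate markers, gave 8 interstitial and 6 granulosa clusters. Among interstitial clusters Col1a2 varied by 1.35 times and Col1a1 by 1.62 times from the lowest to the highest. Col15a1 varied most, by 10.7 times, from 5.92 and 1.67 CPM in cluster 13 to 63.9 and 17.6 in cluster 6, with levels in replicate 1 well above those in replicate 2. Col9a2 varied by 5.67 times, from 35.6 and 27.9 CPM in cluster 6, led by Lamc3 and Ntrk2, to 172 and 188 in cluster 13. Col27a1 ranged from 12.9 and 21.1 in cluster 18, led by mitosis genes, to 71 and 52.5 in cluster 13, and Col12a1 from 54.8 and 54.3 in cluster 6 to 160 and 127 in cluster 13. Col6a3 was highest in cluster 8, led by Mfap5 and Tagln, at 157 and 155, and lowest in cluster 18, at 63.1 and 63.3. Both libraries separated these pairs of clusters.

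Among granulosa clusters Col6a2 and Col6a1 varied most, from 1.95 and 6.25 CPM and from 6.34 and 6.25 in cluster 10 to 42.8 and 58.2 and to 50.3 and 63.2 in cluster 16, led by Ly6d. The cluster 10 levels rest on 4 and 3 UMIs of Col6a2 and 13 and 3 of Col6a1. Immune-gated cells, which should lack most collagens, held 30.9 and 41.7 CPM of Col6a2 and 34.8 and 29.8 of Col6a1. Col4a1 varied by 5.79 times. It held 93.1 and 67.4 CPM in cluster 0 and 88.7 and 94.9 in cluster 14, both with Amh and Inhbb, genes of growing follicles, among their leading genes, and 500 and 429 in cluster 2, led by chemokine and immediate-early genes. Col4a5 ran from 13.9 and 4.7 in cluster 0 to 55.1 and 46.1 in cluster 2. Col27a1 went the other way, from 16.2 and 19.7 in cluster 16 to 87 and 141 in cluster 14, and Col18a1 varied by only 1.37 times. No test was made between clusters.

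**Figure D5:**
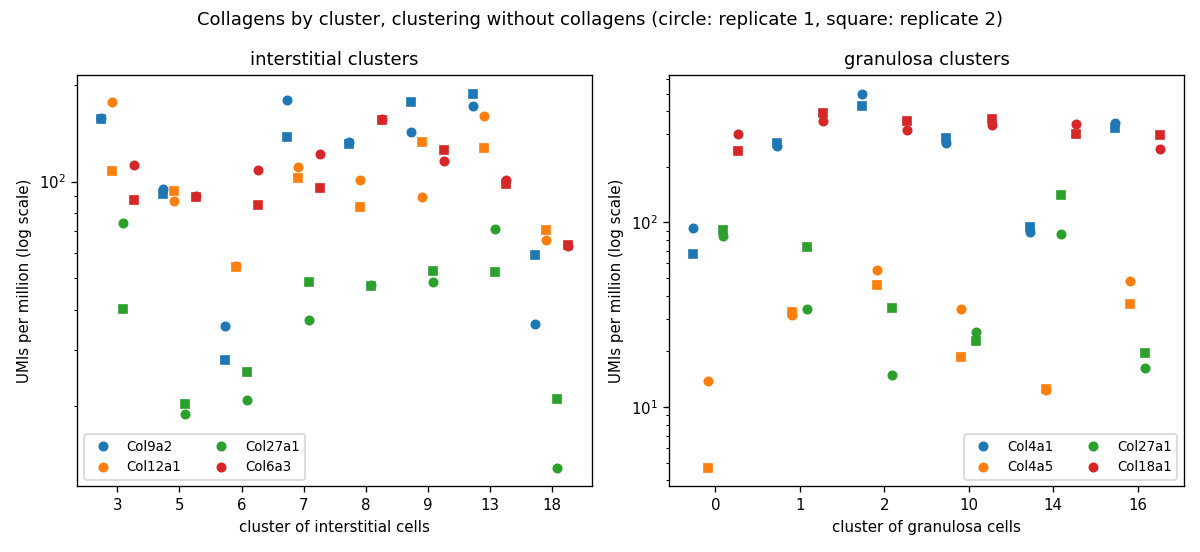
CPM (y axis, log scale) of 4 collagens in each interstitial cluster (left) and of 4 in each granulosa cluster (right), with a circle for replicate 1 and a square for replicate 2. Col9a2 is lowest in interstitial cluster 6 and Col4a1 in granulosa clusters 0 and 14, while Col18a1 stays between 243 and 390 in the granulosa clusters.

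Genes that make, process, remove and sense collagen were followed as 4 lists, chosen with earlier results of these data known. Of 20 tested synthesis genes, 13 were higher in interstitial-gated cells (14.7% of all genes) and 0 lower (2.85%), and in germ-gated cells 2 were higher (32.4% of all genes) and 15 lower (16.0%). The interstitial genes of largest fold were Creb3l1, a transcription factor of collagen synthesis, at 280 and 275 CPM (log2 fold change 5.01 ± 0.22, adjusted p = 6.26e-09), P3h2 and P4ha2, prolyl hydroxylases at 23.2 and 22.4 and at 12.6 and 8.99, and P3h3 at 204 and 164 (3.2 ± 0.19, adjusted p = 6.35e-08). P3h2 was at 50.8 and 30.9 in perivascular-gated cells. Of 11 tested processing and cross-linking genes, 10 were higher in interstitial-gated cells (14.7% of all genes), led by Loxl1, a cross-linking oxidase at 287 and 287 with none in perivascular- and endothelial-gated cells, the propeptidases Adamts14 (5.98 and 3.92) and Adamts2 (215 and 231, 4.5 ± 0.24, adjusted p = 2.82e-08), and Loxl3 (23.8 and 18.8).

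Of 11 tested breakdown genes, 8 were higher and 1 lower in interstitial-gated cells (14.7% and 2.85% of all genes). Those of largest fold were the protease Mmp16 (46.5 and 44.2 CPM), Fap (14.5 and 23.6, but 78.4 and 51.5 in perivascular-gated cells), the collagen uptake receptor Mrc2 (26.4 and 28.3) and the lysosomal collagenase Ctsk (17.9 and 52.4). Of 8 tested receptors, 3 were higher in perivascular-gated cells, where 5.59% of all genes were. Itga1, the alpha subunit of a collagen-binding integrin, held 646 and 577 in perivascular-gated cells and at most 24.3 in any other gated type (log2 fold change 6.09 ± 0.17, adjusted p = 2.07e-10), and its partner Itgb1 held 595 and 474 there and 360 and 349 in endothelial-gated cells (1.67 ± 0.16, adjusted p = 9.09e-06). The collagen receptor kinase Ddr2 held 27.7 and 41.2 in perivascular-gated and 27.5 and 32.5 in interstitial-gated cells and none in mesothelial- and endothelial-gated cells.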

How the data were processed

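Whole ovaries of female CD1 mice at postnatal day 2 were measured by droplet 3′ single-cell RNA sequencing in 2 libraries. The authors deposited UMI counts per gene and cell, made with Cell Ranger 3.0.2 on GRCm38, as the submitters' processing notes give them; the strand setting is not given in the sources used here. Symbols shared by several identifiers (35) were not members.

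Barcodes under 500 detected genes, or with mitochondrial transcripts above 10% of UMIs, were dropped, which left 3738 and 4464 cells, and likely doublets were removed with Scrublet at the threshold found in replicate 1 (96 and 93 cells). Cells were gated on marker genes (at least 2 UMIs holding 70% of marker UMIs), which left 243 and 540 cells in no type, and 52 and 145 cells lay within 10 percentage points under that share and 73 and 168 within 10 over it. Counts were summed per library and type (12 sums) and fitted with edgeR 4.0.16 (R 4.3.3) by a quasi-likelihood model with TMM scaling, Benjamini-Hochberg adjustment over all tested genes and the types as the only term, as set in 9 contrasts. Every printed adjusted p comes from that test, refitted on the sums of the Upk3b-first gate for values of Upk3b-first cells. Both types compared come from the same animals of a library, so the library pairs them; the correlation of the library differences between types ran from −0.00248 to 0.317 (median 0.034, 15 pairs). DESeq2 1.42.0 was an alternative. Clusters were made with scanpy 1.11.5 (2000 variable genes, 30 components, 15 neighbours, resolution 1).

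CPM here are counts per 1000000 UMIs and are not scaled by transcript length. Shares of cells were also taken with each cell thinned to 2000 UMIs. In the fit on thinned counts the filter on low counts was applied again. Members that did not pass it were not tested there and count as not called. Ratios need 10 UMIs of each gene. A type with no UMI was set to a floor of 3 UMIs over both libraries. Floors cover counting error only. The ± values are standard errors derived from the quasi-likelihood test, which takes in the spread between libraries. The fit was tested on simulated counts. A member was described singly where its mean reached 20 CPM in a gated type, and up to 4 genes per collagen-related list were named, those of largest fold in the type with most calls. The members, markers and lists were chosen with earlier results of these data known.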

Additional observations from a re-analysis of the deposited data

Results flagged for a closer look

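Collagen transcripts were also counted in cells outside the comparisons. In immune-gated cells, which should lack most collagens, they held 0.0445% of UMIs in replicate 1 and 0.0602% in replicate 2, above the 0.00116% and 0.000894% that a count of 0 would allow. The immune levels of Col1a1 were 77.3 and 128 CPM and those of Col3a1 92.8 and 173. In the cells that no gate took (243 and 540), collagens held 0.208% and 0.219% of UMIs, and 162 and 255 of these cells lay in the mesothelial cluster. Over all cells that no gate took, Col3a1 was at 563 and 591 CPM, Col6a1 at 284 and 252 and Col6a2 at 295 and 277.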

How the results depend on the processing

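Of 202 values of the 13 counts of calls under alternatives, 173 stayed within 1.5 times and 29 did not. With cells thinned to 2000 UMIs, the collagens called higher became 16 in interstitial-gated, 3 in granulosa-gated and 0 in germ-gated cells, 4 in perivascular- over endothelial-gated and 2 in granulosa- over mesothelial-gated cells (Col18a1 and Col4a1). Some members did not pass the filter on low counts in the thinned sums, among them Col4a5, Col9a3, Col11a1 and Col23a1. They were not tested there, so these counts are not all of members tested and lost. With the other types summed as the reference, 3 were higher in perivascular-gated, 1 in mesothelial-gated and 5 in germ-gated cells, and 7 were lower in perivascular-gated (0 otherwise), 5 in mesothelial-gated (1), 21 in granulosa-gated (3), 18 in endothelial-gated (10), 28 in germ-gated (13) and 3 in interstitial-gated cells (1). At a gate of 50% there were 8 in mesothelial-gated, 6 in germ-gated and 3 in granulosa- over mesothelial-gated cells, and at 90% there were 2 in mesothelial-gated, 2 in mesothelial- over granulosa-gated and 0 in the reverse. Clusters in place of the gate gave 7 mesothelial, 6 germ and 7 granulosa over mesothelial. DESeq2 gave 8 mesothelial and 3 granulosa over mesothelial. Without a filter on low counts there were 7 germ, 2 endothelial over perivascular and 5 granulosa over mesothelial, and with likely doublets kept 2 granulosa over mesothelial. Upk3b first in the gate, chosen after seeing the data, gave 8 mesothelial, 5 germ, 8 mesothelial over granulosa and 7 granulosa over mesothelial. With the library as a replicate block, 1 was higher in endothelial- than perivascular-gated and 3 in granulosa- than mesothelial-gated cells, and no call among 98 single fold changes changed. The cause of these shifts was not tested. Besides the main fit, counts over all genes were taken only for DESeq2 and library-size scaling. The single fold changes were followed under these alternatives except the summed reference. With cells thinned, 90 of the 98 were followed, without those of Col4a5, Col9a3, Col11a1 and Col23a1. Values with 1 library per type have no test and were judged only by a change of more than 2-fold. Of 1462 values of the single fold changes 1406 kept direction and call, or that fold, 51 lost the call and 2 reversed. The rest kept direction but came under 2-fold, 2 without replicate 1 and 1 without replicate 2. The log2 fold change of Col1a2 in granulosa-gated cells was 0.81 at a gate of 90%, and the log2 fold change of Col26a1 in granulosa-gated cells went from −1.63 without replicate 1 to 0.41 without replicate 2.

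Over all genes, DESeq2 moved the share of calls that were higher from 83.7% to 51.2% in interstitial-gated, 77.9% to 90.6% in perivascular-gated, 83.3% to 57.1% in granulosa-gated, 84.2% to 94.8% in mesothelial-gated and 66.9% to 50.8% in germ-gated cells, and from 48.9% to 28.4% (38.3% by library size only) in interstitial over perivascular, 48.8% to 38.2% in endothelial over perivascular and 55.0% to 73.4% in mesothelial over granulosa. Library-size scaling moved the median of all genes by −0.16 (log2) at most. The 30 mesothelial-gated cells and 73 endothelial-gated cells limit what their levels can show.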
